A study of Mus musculus with 6 samples.

Results

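The extracellular matrix is cut by secreted and membrane-bound metalloproteinases, held in check by tissue inhibitors, and stiffened by enzymes that cross-link its collagen and elastin. The genes of these enzymes were followed in RNA-seq of 6 mouse liver tumor cell lines. Members were chosen by symbol, as every listed matrix metalloproteinase (*Mmp*), *Adamts* protease, tissue inhibitor of metalloproteinases (*Timp*) and lysyl oxidase (*Lox* and *Loxl*) gene. This gave 46 members among 21065 rows of the deposited table, namely 20 *Mmp*, 17 *Adamts*, 4 *Timp* and 5 lysyl oxidase genes. The choice was made with earlier results of these data known.

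All 6 lines carried a *Myc* transposon, delivered to the hepatocytes of adult female C57BL/6 mice by hydrodynamic tail vein injection, a rapid injection that drives plasmids into the liver. In 3 lines the plasmid injected alongside carried Cas9 and a guide RNA against *Trp53* (*Myc*; sg*Trp53*), and in the other 3 a guide against *Kmt2c*, which encodes the histone methyltransferase MLL3 (*Myc*; sg*Kmt2c*). Neither genotype therefore has both genes intact, no line carries *Myc* alone, and the lines are not isogenic. The cultures were grown on collagen-coated plates and passaged until no fibroblasts were seen, and received no treatment. Each line gave 1 library, and the labels name sg*Kmt2c* lines 2 and 3 as 2A and 2T1. The study's methods state that the lines of a genotype came from different mice. Line numbers are labels, and lines of the same number were not shown to be pairs across the genotypes. The question asked is whether the levels of these genes differed between lines made with a guide against *Kmt2c* and lines made with a guide against *Trp53*.

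Levels are given as RPKM, the reads on a gene divided by its listed transcript length in kilobases and scaled to the reads counted on genes in the library. The libraries held 5312182 to 6878625 reads on genes in the sg*Trp53* lines and 3680068 to 4704539 across the sg*Kmt2c* lines. A single read on a transcript of 2 kb was worth 0.0726 to 0.136 RPKM, and a count of 0 allows up to 3 reads, counting error only. *Trp53* RNA was at 17.2, 17.6 and 19.4 RPKM in sg*Trp53* lines 1, 2 and 3 and at 92.2, 124 and 121 RPKM across the sg*Kmt2c* lines. The difference follows the labels (adjusted p = 0.0140, limma). *Kmt2c* RNA overlapped between the genotypes (18.4 to 24.2 against 9.51 to 25.0 RPKM), so it does not check them. A Cas9 cut need not lower the RNA of its gene.

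Matrix metalloproteinases are made as inactive precursors and, once activated, cleave collagens and other matrix proteins. ADAMTS proteases carry thrombospondin repeats and cleave proteoglycans or trim procollagens. TIMPs bind the active site of these proteases, and lysyl oxidases oxidise lysines so that collagen and elastin fibres become cross-linked. In the liver such genes are best known from fibrosis, where stellate cells and macrophages are major sources.

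Of the 46 members, 23 had at least 1 RPKM in at least 3 of the 6 libraries and entered the test. Between the genotypes no tested member reached an adjusted p under 0.05 (limma, adjustment over all 11617 genes tested), where 0.129% of all genes did. Adjusted p-values of the members ran from 0.306 to 0.915. At an unadjusted p under 0.05, which 8.58% of all genes reached, 6 members were found. *Adamts5*, *Loxl2*, *Loxl1*, *Adamts14* and *Loxl3* were lower in the sg*Kmt2c* lines, against 5.34% of all genes that were lower, and *Mmp13* was higher, against 3.25%. The 5 lower members were also the 5 whose values did not overlap between the genotypes. Non-overlap in that direction was seen in 10.4% of all genes, non-overlap in the other direction in 5.72% of all genes and in 0 members.

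The unadjusted counts depended on single lines. Without sg*Kmt2c* line 1, 3 members were lower and 0 higher, where 5.31% of all genes were lower and 3.94% higher. Without sg*Trp53* line 2 the members' counts were again 3 and 0, and the shares of all genes were 3.42% and 2.13%. Without sg*Trp53* line 1, 7 members were lower and 0 higher, against 3.83% and 2.75% of all genes. After quantile normalization 4.01% of all genes were lower and 4.31% higher, with 3 members lower and 1 higher. limma voom on the recovered reads gave 0 members at an adjusted p under 0.05, with 5 lower and 1 higher at an unadjusted p, against 3.90% and 4.04% of all genes. *Loxl2* passed the filter through the sg*Trp53* lines alone and so could only be lower.

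The log2 fold change, sg*Kmt2c* against sg*Trp53* on log2(RPKM + 1), was negative for 17 tested members and positive for 6. Over all genes it was negative for 58%. The median over the members was -0.97 and over all genes -0.0859. Without sg*Trp53* line 2 the members' median was -0.36, and without sg*Kmt2c* line 1 it was -0.34. All 7 tested *Adamts* genes had a negative value, as did 4 of 5 lysyl oxidases, 4 of 8 *Mmp* genes and 2 of 3 *Timp* genes. *Adamts4*, *Adamts5*, *Adamts9* and *Adamts14* each reached 1 RPKM in a single sg*Kmt2c* line, so they passed the filter mainly through the sg*Trp53* lines. *Mmp28*, at 12.8 and 4.02 RPKM in sg*Kmt2c* lines 1 and 2, did not pass. The signs thus depend in part on the filter. On the log2(RPKM + 1) scale the change of genes with low values is understated.

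**Figure D1:**
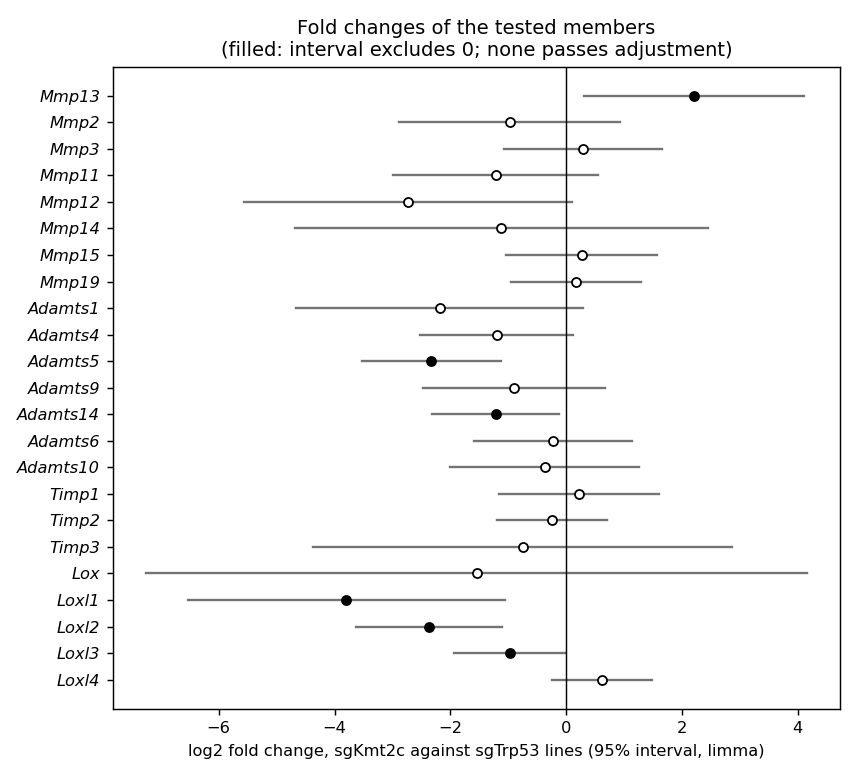
Log2 fold change of each of the 23 tested members (x axis, sgKmt2c against sgTrp53 lines, on log2(RPKM + 1)) with its 95% interval from limma. Filled points mark the 6 members whose interval excludes 0, of which 5 lie to the left and *Mmp13* to the right, and no member passes the adjustment.

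All 5 lysyl oxidases were tested, and all had reads in every line but sg*Kmt2c* line 1, where 3 had reads. *Loxl1*, *Loxl2* and *Loxl3* were 3 of the 5 tested members without overlap, all lower across the sg*Kmt2c* lines. Of all genes, 10.4% did not overlap in that direction. By the filter *Loxl2* could only be lower, and *Loxl3* rests on few reads. *Lox*, the founding enzyme of the family, was at 2.68, 764 and 26.1 RPKM in sg*Trp53* lines 1, 2 and 3. Across the sg*Kmt2c* lines it was at 0, 149 and 19.5 RPKM, where the 0 stands for no read and 3 reads would have been 0.177 RPKM. Within each genotype line 2 held by far the most *Lox*, so that the lines of a genotype differed more than the genotypes did. The log2 fold change of -1.55 had a 95% interval from -7.26 to 4.17.

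*Loxl1*, which acts on elastin fibres, was at 55.7, 67.4 and 42.9 RPKM across the sg*Trp53* lines against 0, 27.1 and 1.26 RPKM across the sg*Kmt2c* lines. The sg*Trp53* lines were close together and all above the sg*Kmt2c* lines, which were spread out. The means were 55.3 ± 12.2 and 9.44 ± 15.3 RPKM (SD, n = 3 each), with a log2 fold change of -3.80 (standard error, SE, 1.15, adjusted p = 0.457 by limma). This value was -5.20 without sg*Kmt2c* line 2 and -2.80 without sg*Kmt2c* line 1.

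*Loxl2*, a cross-linking enzyme of basement membrane collagen, was at 2.31, 4.56 and 12.0 RPKM across the sg*Trp53* lines. Across the sg*Kmt2c* lines it was at 0.519, 0.102 and 0.0440 RPKM, from 13, 2 and 1 reads. The means were 6.29 ± 5.06 and 0.222 ± 0.259 RPKM (SD, n = 3 each), and the log2 fold change was -2.37 (SE 0.526, adjusted p = 0.322 by limma). The sg*Kmt2c* lines thus sat near the limit of detection.

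*Loxl3* was at 1.77, 4.48 and 5.65 RPKM across the sg*Trp53* lines against 0.919, 1.76 and 1.52 RPKM across the sg*Kmt2c* lines. These levels rest on 5, 11 and 18 reads against 2, 3 and 3, because the table lists a transcript of only 462 bases, where the longest annotated one has 4098. The log2 fold change was -0.97 (adjusted p = 0.580, limma). The gene also overlaps *Htra2*, and the use of strand in counting is not stated. *Loxl4* went the other way, with 8.33, 6.89 and 5.55 RPKM across the sg*Trp53* lines against 16.9, 11.9 and 6.57 RPKM across the sg*Kmt2c* lines. The ranges met, and the log2 fold change of 0.62 had an interval from -0.24 to 1.48 (adjusted p = 0.662, limma).

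Among the ADAMTS hyalectanases and aggrecanases, which cleave proteoglycans such as versican and aggrecan, 4 of 7 could be tested. *Adamts5* was at 6.28, 5.02 and 12.5 RPKM across the sg*Trp53* lines against 0, 0.570 and 1.97 RPKM across the sg*Kmt2c* lines, where the 0 allows up to 0.0787 RPKM. All 3 sg*Trp53* lines lay above all 3 sg*Kmt2c* lines. The means were 7.92 ± 3.99 and 0.845 ± 1.01 RPKM (SD, n = 3 each), 9.37-fold apart, with a log2 fold change of -2.33 (SE 0.503, 95% interval -3.53 to -1.13). Its adjusted p of 0.306 (limma) was the lowest of the members, and leaving out any line kept the fold change between -2.74 and -1.96.

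*Adamts1* lies next to *Adamts5* on chromosome 16 (GRCm38, 85793827 to 85803113 against 85858170 to 85901125), 55.1 kb away with 0 listed genes between. It had the highest mean RPKM of the *Adamts* members in both genotypes, at 85.1, 31.0 and 90.3 RPKM across the sg*Trp53* lines against 2.56, 10.3 and 65.1 RPKM across the sg*Kmt2c* lines. The genotypes overlapped through sg*Kmt2c* line 3, and the log2 fold change was -2.19 (95% interval -4.66 to 0.29, adjusted p = 0.608, limma). Within each genotype the lines stood in the same order for both neighbours, with sg*Trp53* line 3 above 1 above 2 and sg*Kmt2c* line 3 above 2 above 1.

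*Adamts4* was at 0.672, 4.71 and 3.54 RPKM across the sg*Trp53* lines against 0.339, 0.124 and 1.39 RPKM across the sg*Kmt2c* lines, with overlap. Its log2 fold change was -1.20 (adjusted p = 0.606, limma). *Adamts9* was at 0.143, 4.74 and 2.10 RPKM against 0, 0.271 and 1.46 RPKM, with a log2 fold change of -0.90. For both genes line 1 of the sg*Trp53* genotype fell among the sg*Kmt2c* lines. *Adamts15* did not reach the filter, with 17, 22 and 13 reads across the sg*Trp53* lines against 5, 2 and 4 across the sg*Kmt2c* lines, which did not overlap.

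The procollagen N-propeptidases remove the amino-terminal extension of fibrillar procollagens. *Adamts14* was at 4.14, 3.19 and 1.85 RPKM across the sg*Trp53* lines against 0, 1.83 and 0.721 RPKM across the sg*Kmt2c* lines, which stayed just below. The means were 3.06 ± 1.15 and 0.850 ± 0.922 RPKM (SD, n = 3 each), and the log2 fold change was -1.22 (adjusted p = 0.557, limma). *Adamts2* was not tested, with 9, 139 and 93 reads across the sg*Trp53* lines against 0, 1 and 12 across the sg*Kmt2c* lines. Its groups overlapped through sg*Trp53* line 1.

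The fibrillin-associated proteases showed little difference in their means and a large one between lines. *Adamts10* was at 3.34, 4.24 and 2.39 RPKM across the sg*Trp53* lines against 0.206, 7.37 and 2.55 RPKM across the sg*Kmt2c* lines (log2 fold change -0.37). *Adamts6* was at 1.97, 4.52 and 2.77 against 0.968, 6.92 and 1.5 RPKM (log2 fold change -0.22). In each, sg*Kmt2c* lines 1 and 2 lay on either side of all sg*Trp53* lines. Of the proteases that cleave cartilage oligomeric matrix protein, *Adamts7* had 27, 28 and 28 reads against 0, 13 and 12, without overlap, and *Adamts12* had 2, 10 and 24 against 0, 13 and 10. Neither reached the filter, and *Adamts7* overlaps *Tbc1d2b*.

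The 3 tested TIMPs overlapped between the genotypes. *Timp2* was at 79.5, 192 and 126 RPKM across the sg*Trp53* lines against 87.9, 160 and 82.1 RPKM across the sg*Kmt2c* lines. The estimate, a log2 fold change of -0.25, had an interval from -1.19 to 0.70, so larger changes lay outside it. *Timp1* was at 8.36, 21.9 and 22.7 RPKM against 9.61, 39.6 and 17.8 RPKM (log2 fold change 0.22, interval -1.16 to 1.61). In each genotype line 1 held the least *Timp1*.

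*Timp3*, the TIMP that binds to the matrix, was at 26.9, 65.0 and 56.1 RPKM across the sg*Trp53* lines. Across the sg*Kmt2c* lines it was at 1.12, 162 and 63.3 RPKM, so the lowest and the highest level of the 6 lines were both in this genotype. The log2 fold change of -0.75 had an interval from -4.37 to 2.87 and was 1.12 without sg*Kmt2c* line 1. *Timp4* had at most 1 read. *Timp1*, *Timp3* and *Timp4* lie within *Syn1*, *Syn3* and *Syn2*, which were at or below 0.597 RPKM on average in each genotype.

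**Figure D2:**
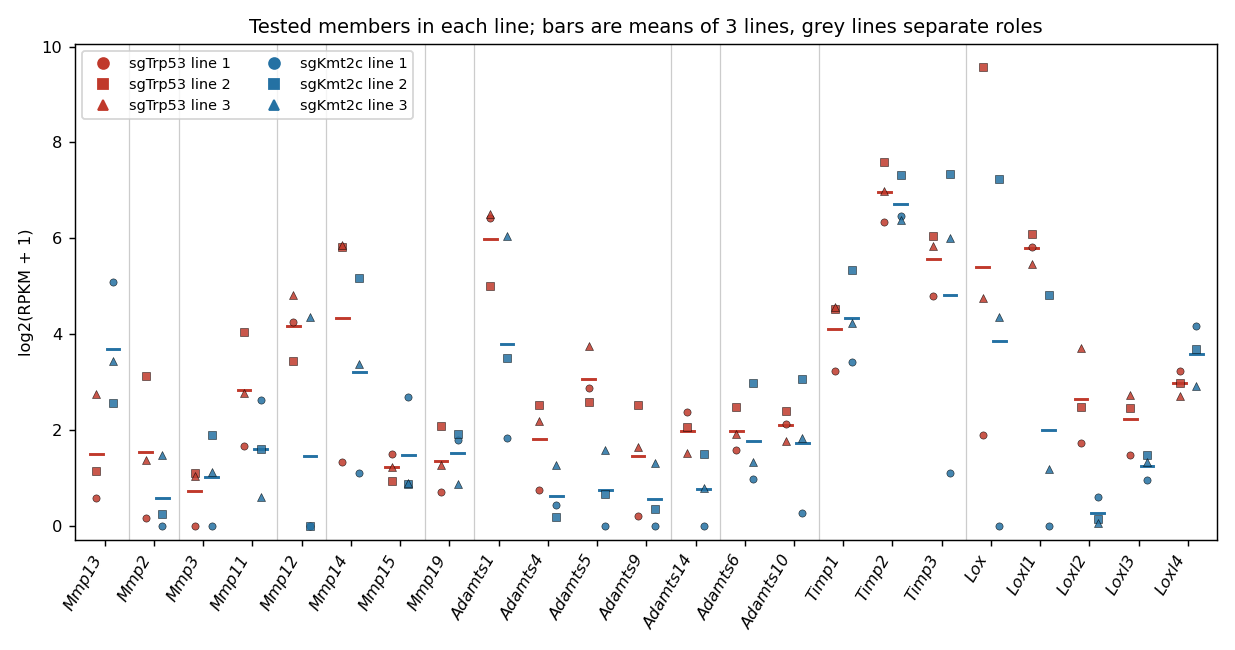
Level of each tested member in each line (y axis, log2(RPKM + 1)), with red symbols for sgTrp53 and blue for sgKmt2c lines, a symbol shape for each line number, and bars at the mean of 3 lines on that scale. The colours separate fully for *Adamts5*, *Adamts14*, *Loxl1*, *Loxl2* and *Loxl3* and mix for the other 18.

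Among the *Mmp* genes, 8 of 20 could be tested and their log2 fold changes ran from -2.72 to 2.21. A group of 8 members lies within 427 kb of chromosome 9 (GRCm38, 7272514 to 7699585) with no other listed gene between them. The collagenases *Mmp1a* and *Mmp1b*, planned as members, were not among the listed genes. In order these are *Mmp13*, *Mmp12*, *Mmp3*, *Mmp10*, *Mmp8*, *Mmp27*, *Mmp20* and *Mmp7*. A shared feature lies upstream of several of them, a match to the element bound by AP-1, the dimer of Fos and Jun proteins. The letters TGAGTCA or TGACTCA, each the reverse complement of the other, were searched in the 250 bases before each start site in RefSeq promoters (GRCm38.p6). They were found in 4.46% of all 32851 promoters. They were found in 5 of the 10 promoters of the cluster, and in 0 of the 22 promoters of other members. Promoters were matched for 29 of the 46 members.

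The 120 bases before these 5 start sites are shown because they carry that shared element. All are on the plus strand, printed 5′ to 3′ up to the base before the start, with AP-1 matches and the TATA letters (TATAAA or its reverse complement TTTATA, in 12.4% of all promoters) in capitals.
*Mmp13* (chr9:7272394-7272513): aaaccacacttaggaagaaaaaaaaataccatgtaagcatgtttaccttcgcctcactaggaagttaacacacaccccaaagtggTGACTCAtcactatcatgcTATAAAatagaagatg
*Mmp12*, second start (chr9:7347254-7347373): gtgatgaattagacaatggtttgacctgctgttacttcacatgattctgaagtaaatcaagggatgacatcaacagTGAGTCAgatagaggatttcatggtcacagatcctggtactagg
*Mmp3* (chr9:7445702-7445821): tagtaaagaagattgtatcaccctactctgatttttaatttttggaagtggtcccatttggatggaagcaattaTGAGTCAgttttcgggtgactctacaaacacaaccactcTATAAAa
*Mmp10* (chr9:7502222-7502341): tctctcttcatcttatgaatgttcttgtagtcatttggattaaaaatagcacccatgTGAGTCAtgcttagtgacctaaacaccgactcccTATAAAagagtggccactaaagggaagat
*Mmp7* (chr9:7691970-7692089): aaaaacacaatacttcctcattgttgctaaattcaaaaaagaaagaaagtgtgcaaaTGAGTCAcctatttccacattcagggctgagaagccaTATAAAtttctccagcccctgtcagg

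The AP-1 match began 35 bases before the start of *Mmp13*, 44 before that of *Mmp12*, 46 before that of *Mmp3* and 63 before those of *Mmp10* and *Mmp7*. In 4 of the 5 windows a TATA match followed it, and the *Mmp12* window held none. A match of letters is a description and not a measured binding site.

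The 5 genes with this element did not share a pattern across the lines. *Mmp13*, a collagenase, was at 0.490, 1.19 and 5.70 RPKM across the sg*Trp53* lines against 33.0, 4.87 and 9.79 RPKM across the sg*Kmt2c* lines. The genotypes overlapped, since sg*Trp53* line 3 was above sg*Kmt2c* line 2, and the means were 2.46 ± 2.82 and 15.9 ± 15.0 RPKM (SD, n = 3 each). The log2 fold change was 2.21 (95% interval 0.31 to 4.11, adjusted p = 0.535, limma), and *Mmp13* was the member with the most positive value. It stayed positive when any line was left out, from 1.51 to 2.84.

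*Mmp12*, the macrophage elastase, went the other way from its neighbour. It was at 18.1, 9.86 and 27.3 RPKM across the sg*Trp53* lines against 0, 0 and 19.4 RPKM across the sg*Kmt2c* lines, from 40, 19 and 68 reads against 0, 0 and 30. Lines 1 and 2 of the sg*Kmt2c* genotype held no read, while line 3 lay within the range of the sg*Trp53* lines. The log2 fold change was -2.72 (95% interval -5.55 to 0.11, adjusted p = 0.592, limma). Its RPKM is inflated beside other genes, since the listed transcript has 362 bases and the longest annotated one 3607. With the longer length, a choice made after seeing the data, the log2 fold change was -0.94. With the listed length, the log2 fold change ran from -4.17 without sg*Kmt2c* line 3 to -2.00 without sg*Kmt2c* line 1 or line 2.

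*Mmp3*, a stromelysin, was at 0, 1.15 and 1.05 RPKM against 0, 2.72 and 1.17 RPKM (log2 fold change 0.29), with no read in line 1 of either genotype. *Mmp10* had at most 11 reads in a line and *Mmp7* had 0 in all 6. Reads summed over the cluster were 49, 47 and 200 across the sg*Trp53* lines against 418, 70 and 160 across the sg*Kmt2c* lines. Most of the reads in each sg*Kmt2c* line came from *Mmp13*, and in sg*Trp53* lines 1 and 2 most came from other genes of the cluster. Of the AP-1 and ETS factors listed alongside, 11 of 12 were tested and only *Junb* had an unadjusted p under 0.05. *Junb* was at 50.2, 92.1 and 79.1 RPKM across the sg*Trp53* lines against 149, 133 and 107 RPKM across the sg*Kmt2c* lines, without overlap (log2 fold change 0.84, adjusted p = 0.491, limma). *Fos* was at 2.75 to 4.74 and 3.86 to 20.5 RPKM and *Jun* at 15.1 to 24.9 and 9.05 to 19.5 RPKM, both overlapping.

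Membrane-type MMPs stay on the cell surface, where *Mmp14* activates the precursor of the gelatinase *Mmp2*. *Mmp14* was at 1.52, 55.5 and 57.2 RPKM across the sg*Trp53* lines against 1.14, 35.0 and 9.37 RPKM across the sg*Kmt2c* lines. Line 1 of each genotype held very little, and the log2 fold change was -1.12 (95% interval -4.69 to 2.44). It was -0.066 without sg*Kmt2c* line 1 and -2.63 without sg*Trp53* line 1. *Mmp2* was at 0.108, 7.67 and 1.58 RPKM against 0, 0.179 and 1.77 RPKM (log2 fold change -0.97), again least in both lines numbered 1. *Mmp15* was highest in sg*Kmt2c* line 1, at 1.81, 0.908 and 1.34 against 5.47, 0.811 and 0.861 RPKM (log2 fold change 0.27).

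*Mmp11*, the stromelysin whose precursor is activated by furin inside the cell, was at 2.15, 15.5 and 5.84 RPKM across the sg*Trp53* lines against 5.19, 2.02 and 0.511 RPKM across the sg*Kmt2c* lines (log2 fold change -1.22, adjusted p = 0.673, limma). *Mmp19* was at 0.625, 3.20 and 1.40 against 2.43, 2.78 and 0.823 RPKM (log2 fold change 0.18) and overlaps *Tmem198b*. In both the genotypes overlapped. *Mmp28*, also called epilysin, reached the filter in too few lines, with 3, 10 and 2 reads across the sg*Trp53* lines against 208, 51 and 4 across the sg*Kmt2c* lines. The reads of sg*Kmt2c* line 3 fell among those of the sg*Trp53* lines.

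The remaining 18 members had fewer than 20 reads in every line. They were *Mmp7*, *Mmp8*, *Mmp9*, *Mmp10*, *Mmp16*, *Mmp17*, *Mmp20*, *Mmp23*, *Mmp24*, *Mmp25*, *Mmp27*, *Adamts3*, *Adamts8*, *Adamts13*, *Adamts16*, *Adamts17*, *Adamts20* and *Timp4*. *Mmp7* and *Mmp25* had no read in any line. At this depth differences in these genes were not detectable.

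Spread between lines of the same genotype was larger for these genes than for most. The SD between lines of a genotype, on log2(RPKM + 1), had a median of 0.873 over the 23 tested members and 0.368 over all genes, and all 23 members were above the latter. An SD above 1 was found for 10 members, or 43.5%, and for 9.81% of all genes. The median SD of the members was 0.688 among the sg*Trp53* lines and 0.972 among the sg*Kmt2c* lines, against 0.255 and 0.412 over all genes. The 95% interval of a member's log2 fold change was 2.77 wide in the median, against 1.45 for all genes.

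**Figure D3:**
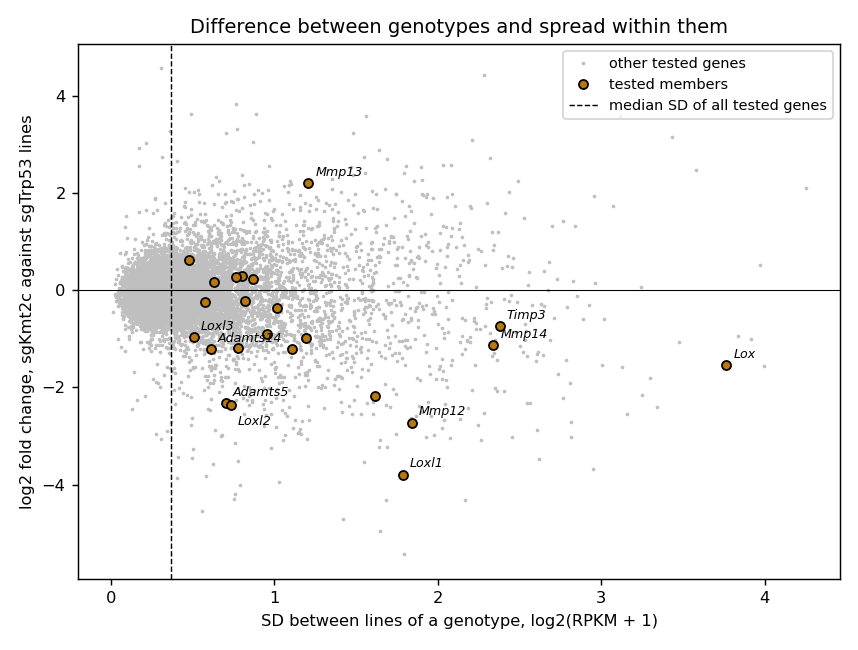
SD between lines of a genotype (x axis, log2(RPKM + 1)) against the log2 fold change between genotypes (y axis) for all tested genes (grey) and the 23 members (orange). All members lie to the right of the dashed line at the median SD of all genes, 0.368, and *Lox* lies farthest right among the members.

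The order of the lines recurred from member to member. Line 1 was strictly the lowest of the sg*Trp53* lines in 15 of the 23 tested members, where it was so in 30.1% of all genes. In the sg*Kmt2c* genotype line 1 was strictly the lowest in 14, against 44.7% of all genes. Line 2 was the highest of its genotype in 12 members in each case, against 34.4% and 31.3% of all genes. In sg*Kmt2c* line 1, 25 of the 46 members had no read, where the other 5 lines had 4 to 11 such members. The share of all genes without a read was not counted, so this is not shown to be particular to the members. Over all tested genes sg*Kmt2c* line 1 also correlated least with the other lines, at 0.759 to 0.836. That line was not the shallowest, since its total was the highest of the sg*Kmt2c* libraries.

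Summed over the family, lysyl oxidases came to 70.8, 847 and 92.2 RPKM across the sg*Trp53* lines against 18.3, 190 and 28.9 RPKM across the sg*Kmt2c* lines. *Adamts* genes came to 103, 63.8 and 120 against 4.26, 29.2 and 76.9 RPKM, and *Timp* genes to 115, 279 and 205 against 98.6, 361 and 163 RPKM. The *Mmp* sums were 26.3, 96.9 and 106 against 60.6, 53.7 and 45.2 RPKM. Of these sums *Mmp12* made up 18.1, 9.86 and 27.3 against 0, 0 and 19.4 RPKM, values inflated by its short listed transcript. All 4 sums overlapped between the genotypes.

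Markers of other cell types moved with some of these levels, and in bulk RNA fewer cells of a type and less RNA per cell cannot be told apart. The 12 fibroblast and stellate markers summed to 18.8, 996 and 292 RPKM across the sg*Trp53* lines against 0.282, 156 and 121 RPKM across the sg*Kmt2c* lines, with line 1 lowest and line 2 highest in each genotype, as for *Lox*. Of these markers 5 were tested, none with an unadjusted p under 0.05. The stellate marker *Lrat* had no read in any line, *Lum* and *Reln* were at or below 0.0790 RPKM, and *Col3a1*, at 814 RPKM, made up most of the sum in sg*Trp53* line 2. Not every marker had the order of the sum. Of the tested markers, *Col3a1*, *Col1a2* and *Pdgfrb* were highest in line 2 among the sg*Trp53* lines. *Col1a1* and *Acta2* were highest in line 3, at 39.2 and 124 RPKM against 23.2 and 10.2 RPKM in line 2. Among markers below the filter, *Dcn*, *Des* and *Thy1* were highest in sg*Trp53* line 3 and *Pdgfra* in sg*Trp53* line 2. *Dcn* was lowest in line 2 there, at 7.39, 0.897 and 8.16 RPKM across the sg*Trp53* lines. Across the sg*Kmt2c* lines it was at 0, 0 and 0.248 RPKM, without overlap. The part of fibroblast and stellate cells in the lysyl oxidase and *Timp3* levels was not tested.

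**Figure D4:**
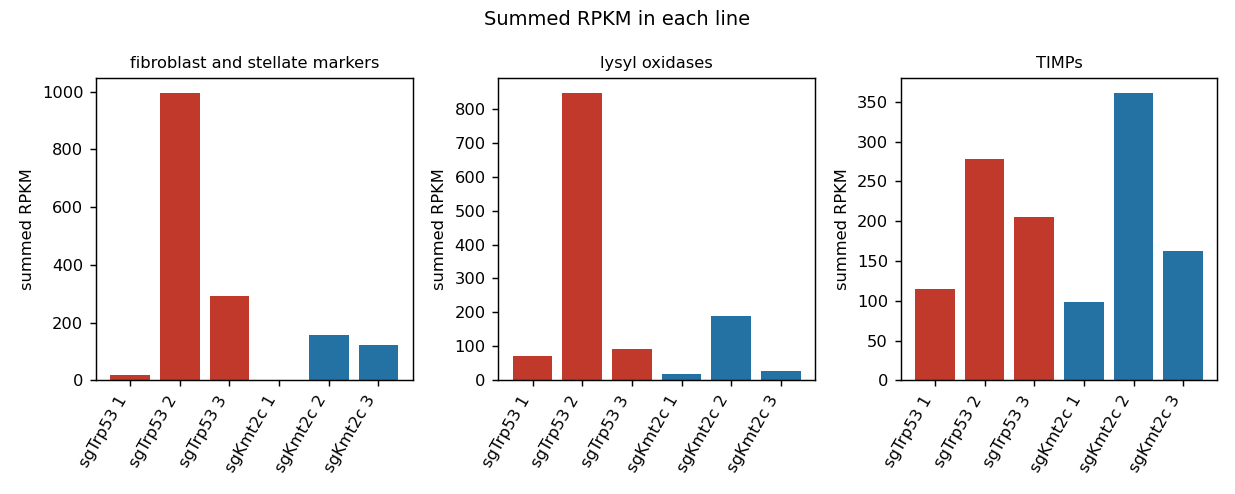
RPKM summed over 12 fibroblast and stellate markers, 5 lysyl oxidases and 4 TIMPs in each line (y axes start at 0, scales differ between panels, red for sgTrp53 and blue for sgKmt2c lines). Line 2 has the highest and line 1 the lowest sum of its genotype in all 3 panels. In sgTrp53 line 2 most of the marker sum is *Col3a1*, and not every marker has this order.

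The 7 macrophage markers summed to 26.7 to 67.1 RPKM across the sg*Trp53* lines against 5.51 to 16.3 RPKM across the sg*Kmt2c* lines. Of the 5 tested, *Csf1r*, *C1qa*, *C1qb* and *Lyz2* were lower in the sg*Kmt2c* lines at an unadjusted p under 0.05, without overlap, and none reached an adjusted p under 0.05 (limma). The other tested marker, *Cd68*, overlapped, at 7.60, 2.60 and 4.01 against 5.35, 5.29 and 1.71 RPKM (log2 fold change -0.17). *Csf1r*, *C1qa* and *C1qb* passed the filter through the sg*Trp53* lines alone and so could only be lower. *Lyz2* was at 29.0, 17.1 and 45.3 against 0, 0.214 and 12.4 RPKM. In sg*Kmt2c* line 3 *Lyz2* was below every sg*Trp53* line, whereas *Mmp12* was within their range. The pan-leukocyte marker *Ptprc* was at or below 0.0655 RPKM and *Adgre1* at or below 0.492 RPKM. The part of such cells in the *Mmp12* level was not tested.

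The 6 epithelial markers summed to 67.7 to 999 RPKM across the sg*Trp53* lines against 245 to 5818 RPKM across the sg*Kmt2c* lines, highest in sg*Kmt2c* line 1. The 6 hepatocyte markers summed to 4.89 to 29.3 and 2.04 to 1228 RPKM. *Hnf4a* made up most of the sum in every line but sg*Kmt2c* line 2, while albumin was at 0.644 to 4.36 RPKM, so the defining secreted product of hepatocytes was nearly absent. In sg*Kmt2c* line 1 *Hnf4a* was at 1186 RPKM from 2409 reads, where *Cdh1* was at 191 RPKM from 3986 reads. The transcript listed for *Hnf4a* is thus much the shorter, which raises its RPKM. Endothelial markers summed to at most 0.302 RPKM and neutrophil markers to at most 24.3 RPKM, mainly *S100a8*. The line with the highest epithelial and hepatocyte sums, sg*Kmt2c* line 1, was also the line in which the most members had no read. A relation between these was not tested and would rest on 1 line. The epithelial marker *Sox9* was not highest there, at 6.36 RPKM against 11.9 RPKM in sg*Kmt2c* line 3.

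A list of 71 genes that act with the members was followed in the same fit. Of these, 67 had values and 48 were tested, 0 with an adjusted p under 0.05 (lowest 0.266, limma). At an unadjusted p under 0.05, 4 were higher and 4 lower, against the shares of all genes given above, and the median log2 fold change was -0.31. The 11 tested matrix substrates all had a negative value, with a median of -2.26, and some of them, the fibrillar collagens included, are also fibroblast markers summed above. *Nid1*, the basement membrane linker nidogen, was at 11.3, 22.9 and 54.7 RPKM across the sg*Trp53* lines against 2.60, 0.359 and 2.98 RPKM across the sg*Kmt2c* lines. *Fbn1*, which encodes the microfibril protein fibrillin, was at 2.15, 73.5 and 15.5 against 0, 0.716 and 1.71 RPKM. Neither gene overlapped between the genotypes (log2 fold changes -3.24 and -3.23).

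Upstream of the proteases, *Plau*, the urokinase that starts plasmin formation, was at 18.8, 26.2 and 41.3 RPKM across the sg*Trp53* lines against 9.51, 10.9 and 3.39 RPKM across the sg*Kmt2c* lines, without overlap (log2 fold change -1.79, adjusted p = 0.388, limma). Of the proprotein convertases, which activate *Mmp11*, *Mmp14* and ADAMTS precursors, 2 of the 3 listed were tested and both were higher across the sg*Kmt2c* lines at an unadjusted p under 0.05. *Pcsk5* did not reach the filter and overlapped, at 0 to 0.565 against 0 to 0.386 RPKM. *Furin* was at 23.2, 23.5 and 26.2 against 37.0, 33.4 and 49.6 RPKM (log2 fold change 0.68, adjusted p = 0.474, limma). *Pcsk6* was at 37.3, 15.2 and 26.3 against 278, 78.9 and 105 RPKM (log2 fold change 2.37, adjusted p = 0.328, limma). In sg*Kmt2c* line 1 *Pcsk6* had 812 reads and *Furin* 1001, so the listed *Pcsk6* transcript is the shorter, which raises its RPKM beside *Furin*.

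*Lrp1*, the receptor that takes up MMPs, ADAMTS proteases and TIMPs from the medium, was at 2.21, 11.4 and 10.1 RPKM across the sg*Trp53* lines against 30.5, 48.6 and 16.8 RPKM across the sg*Kmt2c* lines (log2 fold change 1.99, adjusted p = 0.470, limma). For *Lrp1*, *Furin* and *Pcsk6* the genotypes did not overlap. The 12 tested genes of procollagen processing and modification, such as the lysyl and prolyl hydroxylases, had a median log2 fold change of -0.62 and none with an unadjusted p under 0.05. The 4 tested ADAMTS-like genes had a median of 0.12 and likewise none.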

How the data were processed

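RNA-seq of 6 lines, 3 of each genotype, was analysed. The authors trimmed reads with Trimmomatic, used STAR for alignment to GRCm38 and HTSeq for counting, and the deposited unit is RPKM. The authors' own comparison table (DESeq2 1.8.2: mean counts, fold changes, statistics and p-values) was not used, and neither were 6 further sample columns. Of 21065 rows, 209 carried no values. RPKM times transcript length came in whole reads for 100% of values (tolerance 0.01 of a read). All libraries shared 1 flow cell and 2 lanes.

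limma 3.58.1 (R 4.3.3) was run on log2(RPKM + 1), modelling the trend of variance with mean, for genes that reached 1 RPKM in 3 or more libraries, Benjamini-Hochberg adjusted over 11617 genes, and was tested on simulated data. With 3 lines against 3 an exact permutation test cannot go below p = 0.1. Every tested member was named, and of the others those with at least 20 reads in a line. Among the pathway genes, those with an unadjusted p under 0.05 and without overlap were named, while *Fos*, *Jun* and the markers were chosen after their values were seen. The members and lists were chosen with earlier results of these data known. RefSeq promoters came from GRCm38.p6, with no entry matched for *Adamts4*, *Adamts5*, *Adamts6*, *Adamts7*, *Adamts8*, *Adamts10*, *Adamts15*, *Adamts16*, *Lox*, *Loxl1*, *Loxl2*, *Loxl3*, *Mmp2*, *Mmp9*, *Mmp16*, *Mmp17* and *Mmp19*.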

Additional observations from a re-analysis of the deposited data

How the results depend on the processing

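No member had an adjusted p under 0.05 (limma) in any of 19 alternatives, and the lowest, 0.0715 for *Loxl1* without sg*Kmt2c* line 2, stood in a range of 0.0715 to 0.922 for that gene. Over all genes, 15 passed in the analysis reported, 6 with a pseudocount of 0.1, 5 with no filter on low values, 3 with limma voom on recovered reads, and 0 with sg*Kmt2c* lines 2 and 3 counted as 1 sample. With each line left out, 0 to 8 passed. The members' median log2 fold change was -0.19 with no filter, where 44 members were tested, and -1.35 to -0.34 with each line left out. With the replicate number as a block, 0 genes passed, and 1 member was higher and 8 lower at an unadjusted p, against 3.70% and 5.64% of all genes. The numbers were not shown to pair the lines, since deviations of lines with the same number correlated at 0.192, 0.399 and 0.0316, and not every line correlated best with its own number.

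The sign of 14 of 436 member values reversed, in 9 members and only on leaving out a line. Over those fits the log2 fold change ran from -1.04 to 0.36 for *Adamts10*, -0.83 to 0.17 for *Adamts6*, -3.31 to 0.54 for *Lox*, -0.34 to 0.58 for *Mmp15*, -0.15 to 0.54 for *Mmp19*, -0.15 to 0.79 for *Mmp3*, -0.29 to 0.68 for *Timp1*, -0.57 to 0.064 for *Timp2* and -2.01 to 1.12 for *Timp3*. The cause was not tested. Leaving out a line moved the fitted value of 13 of the 23 members by over 1.5-fold. The median over all genes was -0.12 on the TPM scale and -0.10 with a pseudocount of 0.1. Recomputing RPKM with the longest GENCODE M1 transcript, chosen after seeing the data, dropped *Loxl3* from the test and gave 20 genes and 0 members past the threshold. With 3 lines per genotype and 1 library per line, the width of the intervals limits what could be seen.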
